A study of Mus musculus with 16 samples.

Results

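Mouse pluripotent stem cells kept in LIF with inhibitors of MEK, of GSK3 and of the type I receptors of the Nodal and TGF-beta family (2iSB LIF) were compared with cells kept in LIF and serum (LIF serum). The comparison rests on 8 of the series' 16 single-colour arrays, the 4 titled 2iSB mESCs and the 4 titled LIF serum, chosen by title alone. Each array carried RNA of a different line of 129/Ola mice. LIF serum lines came from pre-implantation embryos, are called naive in the labels and were at passage 23, 24, 26 and 26. The 2iSB lines also came from pre-implantation embryos, are called ground state, received 2i, SB431542 and LIF, and were at passage 22, 17, 19 and 24. LIF is therefore shared by both groups, while serum was present in the former only. The closest other group, used below where 2iSB LIF is set against it, is 2i LIF, 4 ground-state lines from pre-implantation embryos without SB431542, at passage 24, 22, 23 and 22. A line that is kept in a medium has also been established in it, so the medium and the history of the line cannot be told apart. The labels give no sex, no feeder layer and no serum lot for any line, and do not say whether lines came from separate embryos. The p-values therefore measure only the spread between arrays of a group, and that spread was estimated from all 16 arrays of the series in 4 groups. It holds differences between lines and between the 2 slides, which the main fit did not model.

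Serum-grown mouse stem cells receive many signals at once. LIF acts through the receptor subunits Lifr and Il6st and the factor Stat3, and sustains self-renewal. FGF4 made by the cells drives MEK and ERK, which prime them for differentiation, and blocking MEK removes that drive. GSK3 marks beta-catenin for destruction, and blocking it relieves repression of naive genes by Tcf7l1. Nodal and Activin bind type I receptors that phosphorylate Smad2 and Smad3. SB431542 blocks these receptors, and Lefty1 and Lefty2 are known targets of the pathway.

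Signals are given on the log2 scale relative to the 75th percentile of their own array, so 0 is a bright gene and a step of 1 is a 2-fold change. Rises and falls given as a single value are log2 differences, 2iSB LIF minus LIF serum, and 4 values in a row are arrays 1 to 4 of a group. A gene was called when its adjusted p was under 0.05 and its change at least 2-fold. Of 15517 genes tested, 3115 were called (20.1%), 1056 of them higher in 2iSB LIF (6.81%) and 2059 lower (13.3%). The arrays of both groups did not overlap for 4570 genes (29.5%). The median difference over all genes was 0.02. Between 53% and 63.6% of probes were well above background on 2iSB LIF arrays and between 51.5% and 60.8% on LIF serum arrays. Of the called genes, 2016 were well above background on all 8 arrays, and 314 on all arrays of neither group, for which no fold is given.

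LIF serum arrays stood apart in pairs. Arrays 1 and 2 lay on slide 1 and carry the code LS in their descriptions, while arrays 3 and 4 lay on slide 2 and carry the code LSFF. The labels explain neither code. Arrays 3 and 4 correlated at 0.995 and arrays 1 and 2 at 0.99, the 2 closest pairs of the 6 within the group, and 0.955 was the lowest of the other pairs. The 2iSB LIF arrays 1, 2 and 4 lay on slide 1 and array 3 on slide 2. Fitted on the 8 arrays alone, 2699 genes were called, and with the slide as a block 3182. Within slide 1 (2 serum and 3 2iSB arrays) the count was 1761, and within slide 2 (2 and 1) it was 4969, which held 1503 and 2703 of the 3115. In the latter fit, the lone 2iSB array was assumed to vary like the other groups. With passage number in the model the count was 1902, of which 1698 were among the 3115.

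Both groups carried the RNA of pluripotent cells. Pou5f1, the factor Oct4, was at 6.39, 6.14, 5.97 and 5.92 on LIF serum arrays and 5.37, 5.72, 5.54 and 5.69 on 2iSB arrays, all lower (log2 difference -0.52, adjusted p = 0.022). Sox2, its partner, was at 3.98, 4, 3.54 and 3.66 and 4.05, 4.4, 4.53 and 4.11 (log2 difference 0.48, adjusted p = 0.031), and neither change reached 2-fold. Genes of fibroblasts were measurable in serum. Without Vim, which stem cells also express, the summed level of the 21 other fibroblast genes ranged from 16.7 to 123 times the array's 75th percentile on LIF serum arrays (median 58.4) and from 2.4 to 3.54 on 2iSB arrays (median 2.79). Of the defining fibroblast markers, Twist2 and Postn were not well above background on any 2iSB array, nor were Lum, Dcn and Prrx1. Col1a1 was well above background on all 4 2iSB arrays, at -3.78, -2.41, -2.49 and -3.56. Of all 22 fibroblast genes, 15 were well above background on every array of LIF serum or of 2iSB LIF. Detection of the undetected markers on serum arrays is not given, so their absence does not by itself separate the groups. The part of such cells in the differences below was not tested. In bulk RNA, fewer cells of a type and less RNA per cell cannot be told apart.

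Lefty1 and Myl9 were low and Gsc and Sox21 high in 2iSB LIF, each without overlap between the groups. Lefty1, a secreted inhibitor of Nodal that the pathway itself induces, was at 3.56, 3.97, 1.81 and 1.69 on the 4 LIF serum arrays and at -5.72, -4.84, -5.03 and -4.47 on the 2iSB arrays, where it was well above background on 1 of 4 (log2 difference -7.77, SE 0.49, adjusted p = 1.2e-07). The serum arrays coded LS were the higher pair. Myl9, a regulatory light chain of smooth muscle myosin, was at 4.77, 4.79, 5.21 and 5.24 against -1.05, 0.45, -1.44 and -1.59 (log2 difference -5.91, SE 0.43, adjusted p = 4.2e-07). Serum values lay within 0.5 of each other. Gsc, a homeobox factor of the organizer and mesendoderm, was at -2.49, -1.96, -2.27 and -2.08 against 1.55, 2.37, 2.86 and 1.08 (log2 difference 4.16, SE 0.51, adjusted p = 4e-05). Sox21, a SoxB2 factor of neural and early embryo cells, was at -1.47, -1.61, -2.29 and -2.33 against 1.03, 2.04, 1.35 and 2.76 (log2 difference 3.72, SE 0.46, adjusted p = 4.4e-05). As the groups did not overlap, the direction within a slide was fixed, and only the sizes are given. On slides 1 and 2 the differences were -8.78 and -6.78 for Lefty1 and -5.51 and -6.66 for Myl9. They were 3.89 and 5.03 for Gsc, and 3.49 and 3.67 for Sox21. Slide 2 held 1 2iSB array. On 2i arrays Lefty1 was high, at 4.27, 3.23, 3.25 and 4.72, while Myl9 was at -1.63, 0.16, -0.14 and 0.2 and Gsc at 1.66, 1.85, 0.91 and 2.02, nearer to the 2iSB than to the serum arrays. Sox21 was at 0.81, 1.37, 1.3 and -0.53, with 2i arrays 1 and 4 below every 2iSB array and array 4 the lowest.

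**Figure D1:**
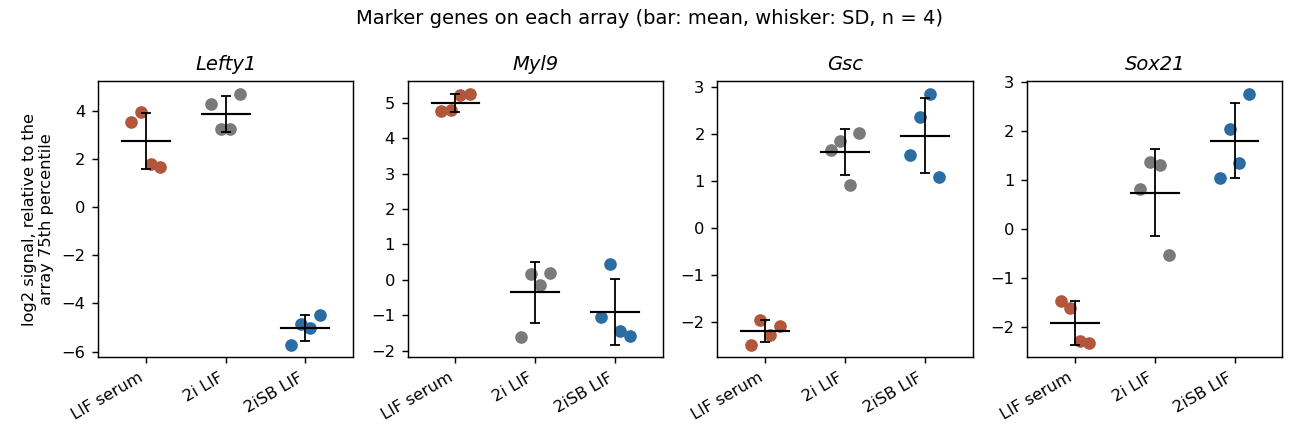
Log2 signal of Lefty1, Myl9, Gsc and Sox21 on each array of LIF serum, 2i LIF and 2iSB LIF, relative to the array's 75th percentile, with the mean as a bar and the SD as a whisker (n = 4). Lefty1 is low on the 2iSB arrays only, while for Myl9 and Gsc the 2i points lie nearer to the 2iSB points than to serum. For Sox21 the 2i points of arrays 1 and 4 lie between the other groups.

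Genes of the Nodal, Activin and TGF-beta pathway were called among ligands, signal carriers and targets, and not among the receptors tested, apart from the co-receptor Tdgf1. Among ligands, Inhba, the subunit of Activin A, was at 1.86, 1.29, -3.22 and -3.05 in serum and not well above background on any 2iSB array, at least 28.5-fold lower (adjusted p = 8.8e-05). The LS arrays were the higher pair. Tgfb2 fell from -0.4, 0.08, 0.01 and -0.03 to -5.42, -3.99, -4.47 and -2.61 (log2 difference -4.04, SE 0.59, adjusted p = 0.00015), Tgfb3 fell by 2.49 and Tgfb1 fell by 1.56, the last a call that was lost without 2iSB array 3. Gdf1, a ligand that pairs with Nodal, fell from 2.53, 2.96, 3.51 and 3.48 to 2.51, 0.33, 0.5 and 1.48 (log2 difference -1.92, SE 0.44, adjusted p = 0.0043). Nodal itself was not called, at 3.44, 3.39, 2.42 and 2.31 in serum and 3.13, 3.49, 3.86 and 3.2 in 2iSB LIF (log2 difference 0.53, adjusted p = 0.14), and neither was Inhbb, the Activin B subunit (log2 difference 1.63, adjusted p = 0.073). The co-receptor Tdgf1 (Cripto) fell by 1.00 on the log2 scale, at the edge of the 2-fold rule, and lost its call without LIF serum array 1 or 2 or 2iSB array 2 or 3. The receptors Acvr1b, Acvr2a, Acvr2b, Tgfbr1 and Tgfbr2, and Smad2 and Smad4, were not called, with differences between -0.34 and 0.89. Smad3, a signal carrier of the pathway, rose from 1.5, 1.49, 1.77 and 1.96 to 2.88, 3.13, 3.43 and 2.81 (log2 difference 1.38, SE 0.18, adjusted p = 5.2e-05), and Pcsk6, a protease that matures Nodal, rose by 1.28. In all, 2 of 21 ligand, receptor and signal carrier genes rose and 6 fell, with a median of 0.05.

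Among 16 targets and inhibitors of the pathway, 7 fell and 2 rose, with a median difference of -1.14. Lefty2, the second Lefty gene, went from 3.23, 3.75, 1.24 and 1.29 to -2.1, -1.75, -1.9 and -1.84 (log2 difference -4.28, SE 0.55, adjusted p = 5.8e-05). Every 2iSB array lay below every serum array. Skil, a corepressor that Smads induce, fell from 3.07, 3.1, 3.39 and 3.53 to 2.61, 1.47, 1.7 and 2.1 (log2 difference -1.3, SE 0.24, adjusted p = 0.0008). Fst, the Activin-binding follistatin, fell by 3.27 (adjusted p = 0.00035). Smad7, the inhibitory Smad, was not called (log2 difference -0.49, adjusted p = 0.34). Its LS arrays were at 2.63 and 2.19 and its LSFF arrays at 0.68 and 1.02, against 0.45, 1.4, 1.36 and 1.34 in 2iSB LIF. Pmepa1, another feedback inhibitor, had the same pattern, at -0.44, -0.95, -4.31 and -4.09 in serum and -3.42, -4.16, -4.07 and -3.82 in 2iSB LIF (log2 difference -1.42, adjusted p = 0.14). Eomes, a mesendoderm factor downstream of Nodal, rose by 1.02 from -1.45, -1.19, -2.05 and -1.73 to -0.35, -0.74, -0.84 and -0.4, a call that was lost without LIF serum array 3 or 4 or 2iSB array 1 or 4.

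SB431542 is the labelled difference in medium between 2iSB LIF and 2i LIF, and few genes separated them. This comparison shares the 2iSB arrays with that against serum, so the values of both are given side by side. Of 15517 genes, 13 were called (0.0838%), 11 of them lower in 2iSB LIF (0.0709%), while 867 had an unadjusted p under 0.05 (5.59%). Lefty1 was at 4.27, 3.23, 3.25 and 4.72 on 2i arrays and lower in 2iSB LIF (log2 difference -8.88, SE 0.49, adjusted p = 2.9e-07). Lefty2 was at 4.29, 3.72, 3.22 and 5.72 and lower too (log2 difference -6.13, SE 0.55, adjusted p = 0.00013). Smad7 was at 2.82, 3.35, 2.53 and 2.24 (log2 difference -1.6, adjusted p = 0.18), Pmepa1 at -2.75, -1.87, -1.54 and -1.22 (log2 difference -2.02, adjusted p = 0.57) and Skil at 2.7, 1.96, 2.45 and 2.77 (log2 difference -0.5, adjusted p = 0.9). For Smad7 every 2i array was above every 2iSB array, but the difference did not pass the test over all genes. Outside the pathway lists, Steap2, a metalloreductase, went from -0.24, -0.92, -1.07 and -2.27 to -3.32, -3.7, -4.21 and -2.81 (log2 difference -2.38, adjusted p = 0.015). Fhod3, a formin that organizes actin, went from 2.04, 0.71, 1.22 and 1.9 to -0.02, -1.06, -1.22 and -0.82 (log2 difference -2.25, adjusted p = 0.013). Duxbl2, a double homeobox gene, went from 0.47, -1, -0.44 and 0.83 to -2.33, -2.6, -2.69 and -2.9 (log2 difference -2.6, adjusted p = 0.0012), and its near-identical neighbour Duxbl1, whose probe may share its RNA, was at least 4.11-fold lower. Igfbpl1, of the insulin-like growth factor binding family, went from -3.5, -2.94, -1.9 and -1.36 to -4.8, -4.67, -4.57 and -4.31 (log2 difference -2.16, adjusted p = 0.025). Steap2, Fhod3, Duxbl2 and Igfbpl1 were also lower in 2iSB LIF than in serum, with log2 differences of -4, -2.39, -3.36 and -2.57. Irgm1, an interferon-inducible GTPase, went from -1.18, -0.63, -0.91 and -0.5 to -6.87, -3.7, -3.14 and -3.76 (log2 difference -3.56, adjusted p = 0.044), and Arnt2, a partner of bHLH-PAS factors, was at least 2.06-fold lower (adjusted p = 0.024). These last genes are outside the naming rule and were picked after their values were seen. The 2 genes that were higher encode actin-binding proteins. Gsn, gelsolin, went from -0.72, -1.34, -1.22 and -1.47 to 0.2, 0.23, 0.76 and 1.3 (log2 difference 1.81, adjusted p = 0.024) and was still lower than in serum, at 3.29, 3.16, 2.62 and 2.75. Cotl1, coactosin, went from 3.76, 2.84, 3.22 and 3.48 to 4.51, 4.3, 4.79 and 4.47 (log2 difference 1.19, adjusted p = 0.044) and did not differ from serum beyond the test (log2 difference -0.15, adjusted p = 0.6). Without 2iSB array 1 the count of called genes was 27, and fitted on the 2i and 2iSB arrays alone it was 3.

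**Figure D2:**
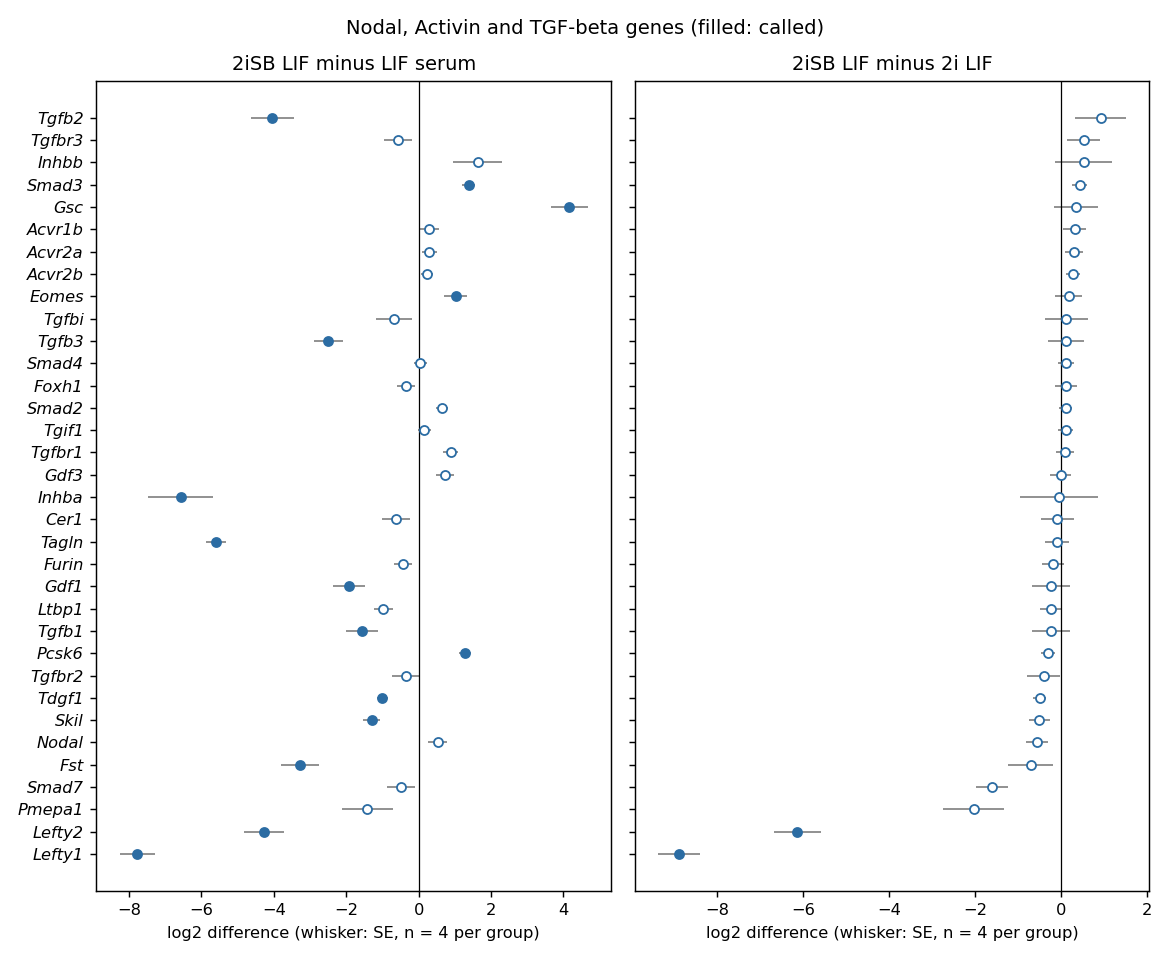
Log2 difference of tested genes of the Nodal, Activin and TGF-beta lists, 2iSB LIF minus LIF serum (left) and 2iSB LIF minus 2i LIF (right), with the SE as a whisker (n = 4 per group) and called genes filled. On the right Lefty1 and Lefty2 stand far below 0 and are the filled points, while on the left called genes lie on both sides of 0.

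Immediate and feedback genes of ERK signalling fell in part. Of 26 tested, 10 fell, none rose, and the median difference was -0.98. The immediate early factors were among the falls. Egr1 went from 3.48, 4.21, 2.97 and 3.21 to 2.2, 1.79, 0.05 and 1.61 (log2 difference -2.05, SE 0.41, adjusted p = 0.0016), Fos from 3.06, 3.55, 3 and 3.12 to 0.51, 0.59, -0.61 and 1.51 (log2 difference -2.68, SE 0.38, adjusted p = 0.00011) and Jun from 4.21, 5, 4.75 and 4.7 to 1.49, 0.59, 0.35 and 2.22 (log2 difference -3.51, SE 0.58, adjusted p = 0.00039), in each case without overlap. Egr2 fell by 3.79 and Myc fell by 3.44 (adjusted p = 0.00018 and 0.016). Among inhibitors that ERK induces, Dusp4, a nuclear ERK phosphatase, fell from 0.83, 1.42, 1.47 and 1.46 to -0.74, -1.66, -2.24 and 0.23 (log2 difference -2.4, SE 0.44, adjusted p = 0.00091), Dusp2 fell by 1.86, and Spry1, a receptor tyrosine kinase antagonist, from 1.84, 2.11, 2.19 and 2.39 to 0.21, 0.15, 0.22 and 0.59 (log2 difference -1.84, SE 0.22, adjusted p = 3.2e-05). Dusp6, the cytoplasmic ERK phosphatase, was at 3.26, 3.44, 1.66 and 1.83 in serum and 0.68, 1.71, 1.66 and 2.06 in 2iSB LIF (log2 difference -1.02, adjusted p = 0.059) and was not called. Its LS arrays lay above and its LSFF arrays among the 2iSB values. Spry4 and Spry2 were not called either, with differences of -0.23 and 0.5. Against the LSFF arrays alone, that of Spry4 was 2.00. Not called were the ETS factors Etv4 and Etv5 (-0.2 and 0.17). On 2i arrays Egr1 was at 2.37, 3.66, 2.54 and 2.61 and Fos at 2.23, 1.75, 1.08 and 0.98. Neither differed between 2iSB and 2i LIF beyond the test (adjusted p = 0.42 and 0.65). For Egr1, however, every 2iSB array was below every 2i array. Between 2i LIF and serum Egr1 was not called (log2 difference -0.67, adjusted p = 0.24 by limma). Fos was called lower in 2i LIF than in serum (log2 difference -1.67, adjusted p = 0.0041).

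Genes of Wnt and beta-catenin signalling moved both ways, 3 of 21 up and 7 down, with a median of -0.30. The kinase that was inhibited, Gsk3b, had higher RNA, from 2.84, 2.68, 2.04 and 2.04 to 3.66, 3.93, 3.57 and 4.07 (log2 difference 1.41, SE 0.24, adjusted p = 0.00057), while Gsk3a was not called (0.08). Tcf7l1, the repressor that beta-catenin relieves, rose by 1.07 and lost its call without LIF serum array 2 or 2iSB array 2 or 3. Notum, a secreted Wnt inhibitor, rose by 1.2 and lost its call without LIF serum array 4. Falls included Lef1, a nuclear partner of beta-catenin, from 3.57, 3.3, 1.98 and 1.99 to 0.51, 0.67, -0.27 and 1.18 (log2 difference -2.19, SE 0.49, adjusted p = 0.0034), Nkd1, a feedback inhibitor (-2.02), and Rnf43, a ligase that removes Wnt receptors (-4.32), well above background on 2 of 4 2iSB arrays. T, the primitive streak factor Brachyury, went from -2.94, -0.54, -3.31 and -3.11 to -7.22, -4.64, -6.69 and -5.47 and was well above background on 1 of 4 2iSB arrays (log2 difference -3.53, SE 0.72, adjusted p = 0.0018). Axin2, a widely used target of beta-catenin, was not called (log2 difference -0.3, adjusted p = 0.67). Within slide 1 the list median was 0.

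For the LIF pathway, which both media activate, 3 of 13 genes rose and 1 fell, with a median of -0.03. Il6st, the shared receptor subunit gp130, rose from 1.52, 1.26, 1.31 and 1.27 to 1.96, 2.43, 2.99 and 2.1 (log2 difference 1.03, SE 0.19, adjusted p = 0.0008), a call that was lost without 2iSB array 3. Socs3, the feedback inhibitor, and Stat3 were not called (log2 differences -0.14 and -0.15). Pim3, a kinase gene that Stat3 induces, fell by 1.08 and lost its call without 2iSB array 3. Of 16 genes of BMP signalling, whose ligands serum supplies, 2 fell and none rose. That share of falls is close to the 13.3% of all genes tested that were called lower. Id1 went from 1.81, 2.04, 3.72 and 3.91 to -0.63, -0.55, -1.41 and 0.64 (log2 difference -3.36, SE 0.54, adjusted p = 0.00035) and Id2 from 1.8, 2.3, 4.65 and 4.9 to -2.38, -1.22, -1 and -0.68 (log2 difference -4.73, SE 0.59, adjusted p = 4.3e-05), and both were highest on the LSFF arrays. Id3 was at 1.9, 1.84, 1.69 and 1.71 in serum and scattered over -1.65, 0.33, 1.08 and 1.76 in 2iSB LIF, and was not called (adjusted p = 0.17).

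**Figure D3:**
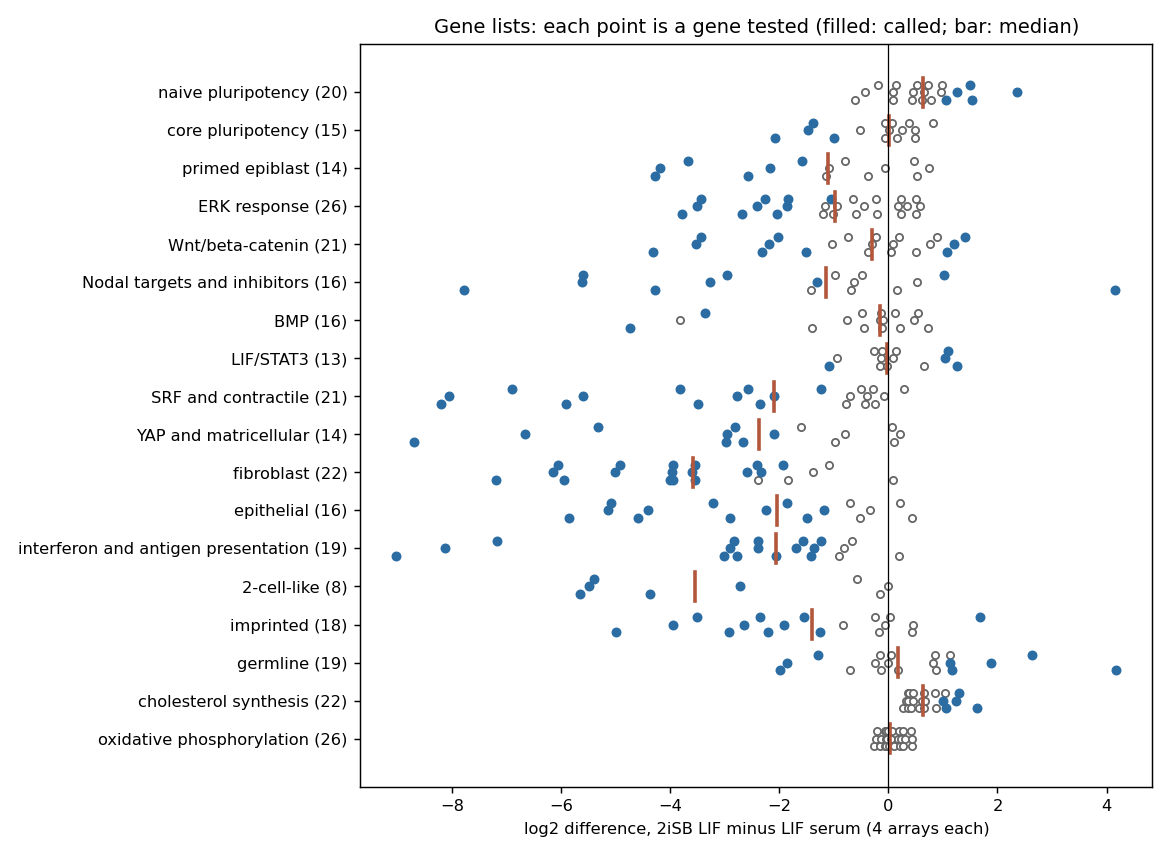
Log2 difference, 2iSB LIF minus LIF serum (4 arrays each), of every tested gene of 18 gene lists, with called genes filled, the list median as a bar and the number of genes tested in brackets. Contractile, fibroblast, epithelial, interferon and 2-cell-like genes lie mostly below 0, cholesterol synthesis genes above it, and oxidative phosphorylation genes close to it.

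Of 20 naive pluripotency genes, 5 rose in 2iSB LIF and none fell, and the median difference was 0.64. With passage as a covariate 1 rose, with a median of 0.33. On slide 1 alone, 2 rose, with a median of 0.1. On slide 2, with 1 2iSB array, the median was 1.46. Prdm14, which represses primed genes and DNA methyltransferases, went from 1.77, 1.29, 1.32 and 1.42 to 3.31, 3.92, 4.16 and 3.85 (log2 difference 2.36, SE 0.33, adjusted p = 0.00011). Tbx3 went from 3.88, 3.52, 3.16 and 3.28 to 4.75, 5.11, 5.33 and 4.83 (log2 difference 1.54, SE 0.3, adjusted p = 0.0013), Nr5a2, an orphan nuclear receptor, rose by 1.49, and Tfcp2l1, a target of LIF and of GSK3 inhibition, by 1.25. Nanog rose from 3.67, 3.5, 2.99 and 2.96 to 3.97, 4.49, 4.4 and 4.48 (log2 difference 1.05, SE 0.24, adjusted p = 0.0038), a call that was lost without LIF serum array 3 or 4. Esrrb, Klf4, Klf2 and Zfp42 were not called, with differences of 0.62, 0.14, -0.19 and 0.66. The serum codes differed here. Against the LSFF arrays alone 11 naive genes were called higher and the median was 1.13, against the LS arrays alone 2 were higher and 1 lower and the median was 0.28.

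Of 15 core pluripotency genes, 4 fell and none rose. Lin28a, the RNA-binding protein that blocks let-7, went from 4.44, 4.43, 5.15 and 4.97 to 2.71, 2.83, 2.87 and 2.28 (log2 difference -2.07, SE 0.23, adjusted p = 1.4e-05) and Lin28b fell by 1.48. Utf1, a chromatin factor of stem cells, fell from 6.29, 5.62, 5.9 and 5.69 to 4.3, 4.2, 4.47 and 4.99 (log2 difference -1.39, SE 0.24, adjusted p = 0.00059). Tdgf1, described above, was the fourth. Of 14 primed epiblast genes, 6 fell, none rose, and the median was -1.11. Pou3f1 (Oct6) went from 1.84, 2.52, 2.33 and 2.53 to -1.54, -1.33, -1.75 and -0.9 (log2 difference -3.68, SE 0.27, adjusted p = 4e-07). Fgf5 went from -1.85, -0.26, -2.04 and -2.13 to -7.56, -6.56, -5.57 and -3.32 and was well above background on 1 of 4 2iSB arrays (log2 difference -4.18, SE 0.9, adjusted p = 0.0026). Otx2, which opens primed enhancers, was not called (log2 difference -0.38, adjusted p = 0.46). Of 10 genes of DNA methylation and demethylation, 2 fell, the de novo methyltransferase Dnmt3b and its cofactor Dnmt3l. Over all genes tested 13.3% were called lower, so the count alone does not set this list apart. Dnmt3l went from 5.87, 5.73, 6.09 and 6.04 to 2.89, 2.38, 2.5 and 2.82 (log2 difference -3.28, SE 0.16, adjusted p = 1.3e-08), with less than 0.6 between arrays of a group. Dnmt3b went from 6.38, 6.59, 7.05 and 7.2 to 3.3, 5.06, 5.27 and 4.9 (log2 difference -2.17, SE 0.4, adjusted p = 0.00094), and 2iSB array 1 had the lowest value. Dnmt1, Uhrf1, Tet1 and Tet2 were not called, with differences between 0.44 and 0.6.

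Contractile and cytoskeletal genes, many of them targets of serum response factor (SRF), fell. Serum response factor binds the CArG box and is activated by serum through changes in actin. Of 21 tested, 12 fell, none rose, and the median difference was -2.09. Cnn1, calponin, was at 2.94, 3.36, 4.62 and 4.74 in serum and -2.81, -4.75, -5.26 and -4.3 in 2iSB LIF (log2 difference -8.2, SE 0.6, adjusted p = 4e-07). Acta2, smooth muscle actin, was at 4.39, 3.84, 3.94 and 3.68 and -4.02, -3.14, -5.15 and -4.08 (log2 difference -8.06, SE 0.53, adjusted p = 1.6e-07). Tagln, transgelin, which bundles actin, was at 5.34, 5.33, 6.02 and 6 and 0.19, 0.48, -0.41 and 0.02 (log2 difference -5.6, SE 0.28, adjusted p = 1.3e-08). Arrays of a group lay close together for Tagln. Acta1, skeletal actin, well above background on 2 of 4 2iSB arrays, fell by 6.89, Tpm2, a tropomyosin, fell by 3.49, and Zyx, zyxin of focal adhesions, fell by 2.77. Cnn2 was at 3.13, 2.97, 3.6 and 3.4 and 0.7, 1.34, 0.23 and 0.54 (log2 difference -2.57, SE 0.25, adjusted p = 4.4e-06) and Fhl2, a LIM protein, fell by 2.36. Tpm1 fell by 1.24 and lost its call without LIF serum array 3 or 4 or 2iSB array 2. Srf itself and the broadly expressed members Actb, Actg1, Vcl, Flna and Tln1 were not called, with differences between -0.5 and 0.29. The list's count was 14 against the LSFF arrays alone and 11 against the LS arrays alone, with medians of -1.99 and -1.97. No member was called between 2iSB and 2i LIF by limma, and 1 had an unadjusted p under 0.05. Over all genes tested, 0.0838% were called in that comparison and 5.59% had an unadjusted p under 0.05. These counts therefore do not set the list apart.

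Promoters of the called contractile genes were read for the CArG box, in either strand over the 250 bases before each start that RefSeq lists in build GRCm38.p6. Of the 12 called genes, 10 had a promoter in the table, and 4 of these (40%) held the box, Myl9, Acta1, Cnn2 and Fhl2. Of all 12279 tested genes with a promoter 195 held it (1.59%), of those called lower 38 of 1530 (2.48%), and of those called higher 11 of 840 (1.31%). Among all tested members of this list with a promoter, called or not, 7 of 18 held it (38.9%), including the uncalled Actg1, Srf and Vcl. The list holds many known SRF targets, so a share above that of all genes follows from its choice. Called members did not stand apart from the list as a whole. The 4 promoters are printed 5′ to 3′, with the CArG box in capitals, because their genes fell together. For Fhl2, 2 starts held the box and the first listed is shown. The match is a description of letters, not of binding.
Myl9, chr2:156775214-156775463, plus strand, box starting 161 bases before the start: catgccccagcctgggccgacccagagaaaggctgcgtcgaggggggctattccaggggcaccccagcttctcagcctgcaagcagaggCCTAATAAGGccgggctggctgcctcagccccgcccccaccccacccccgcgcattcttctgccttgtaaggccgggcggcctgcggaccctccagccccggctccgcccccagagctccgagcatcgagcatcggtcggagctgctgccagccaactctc
Acta1, chr8:123894776-123895025, minus strand, box starting 73 bases before the start: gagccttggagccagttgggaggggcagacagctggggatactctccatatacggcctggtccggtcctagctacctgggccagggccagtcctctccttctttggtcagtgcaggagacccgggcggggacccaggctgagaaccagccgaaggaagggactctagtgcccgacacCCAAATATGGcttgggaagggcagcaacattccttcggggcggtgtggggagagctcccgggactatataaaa
Cnn2, chr10:79988350-79988599, plus strand, box starting 56 bases before the start: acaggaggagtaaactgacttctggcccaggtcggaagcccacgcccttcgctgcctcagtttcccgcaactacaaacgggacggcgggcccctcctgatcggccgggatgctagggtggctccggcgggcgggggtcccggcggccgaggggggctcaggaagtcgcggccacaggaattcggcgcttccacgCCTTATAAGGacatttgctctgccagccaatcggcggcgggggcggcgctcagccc
Fhl2, chr1:43196762-43197011, minus strand, box starting 96 bases before the start: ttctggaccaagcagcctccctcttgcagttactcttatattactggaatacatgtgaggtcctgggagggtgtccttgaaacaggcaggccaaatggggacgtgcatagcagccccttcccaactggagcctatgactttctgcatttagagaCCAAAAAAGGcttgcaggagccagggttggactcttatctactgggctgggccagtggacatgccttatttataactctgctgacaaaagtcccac

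Genes that respond to cell spreading and YAP, and matricellular genes, fell as well, 8 of 14, with none higher and a median of -2.38. Thbs1, thrombospondin, was at 3.54, 3.65, 1.65 and 2.07 in serum and not well above background on any 2iSB array, at least 281-fold lower (adjusted p = 9.9e-08). Ankrd1, a widely used YAP target, went from -0.38, -0.36, 0.79 and 0.74 to -7.43, -3.79, -7 and -7.6 and was well above background on 1 2iSB array, number 2 (log2 difference -6.66, SE 0.7, adjusted p = 1e-05). Ccn2 (connective tissue growth factor) went from 4.71, 4.84, 4.9 and 5 to 1.32, 1.74, 2.64 and 1.86 (log2 difference -2.97, SE 0.35, adjusted p = 2.8e-05) and Ccn1 (Cyr61) fell by 2.1. Yap1, Wwtr1 and Tead1, the pathway's own transcription regulators, were not called, with differences of 0.07, 0.1 and 0.21.

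Of 22 fibroblast genes, 17 fell and none rose, with a median of -3.57. Fitted on the 8 arrays alone, 12 were called lower. Col1a1, a chain of collagen I, was at 4.65, 4.47, 1.38 and 1.81 in serum and -3.78, -2.41, -2.49 and -3.56 in 2iSB LIF (log2 difference -6.14, SE 0.62, adjusted p = 7.5e-06), and Col1a2 was at 5.47, 5.08, 1.22 and 1.35 and -3.86, -3.24, -4.9 and -3.69 (log2 difference -7.2, SE 0.92, adjusted p = 5.3e-05). The pair of LS arrays was far above the LSFF pair for these genes. For Col3a1 (2.14, 1.94, -3.99 and -4.03 in serum) and S100a4 (4.22, 3.87, -2.71 and -2.66 in serum) the LSFF arrays were within 1 log2 unit of the highest 2iSB array, whose group was at -4.7, -5.06, -5.34 and -4.66 and -3.01, -2.84, -4.58 and -2.68. The call of Col3a1 was lost without LIF serum array 2 and that of S100a4 without either LS array or any 2iSB array. Against the LS arrays alone 20 of the 22 were called, with a median of -5.25, against the LSFF arrays alone 11, with a median of -1.51. Genes that were also high on the LSFF arrays include Thy1, a surface glycoprotein, at 3.39, 3.03, 2.45 and 2.42 and 0.11, -0.03, 0.51 and 0.35 (log2 difference -2.59, SE 0.26, adjusted p = 6.1e-06), Mmp2, a matrix protease, at 0.49, 0.14, 1.28 and 0.94 and -1.88, -3.33, -3.44 and -2.7 (log2 difference -3.55, SE 0.41, adjusted p = 2.1e-05), and Pdgfrb, the PDGF receptor, which fell by 2.34. Vim was not called (log2 difference 0.08, adjusted p = 0.88).

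Of 12 basement membrane genes, 5 fell, none rose, and the median was -0.74. Lamb1, a laminin chain, went from 4.37, 4.43, 5.83 and 5.85 to 1.81, 2.01, 1.62 and 1.84 (log2 difference -3.3, SE 0.34, adjusted p = 7.6e-06). Col4a1 went from -0.06, -0.12, 2.95 and 2.77 to -1.32, -2.07, -2.16 and -1.45 (log2 difference -3.13, SE 0.58, adjusted p = 0.00097), and the LSFF arrays were the higher serum pair for both. Epithelial genes fell in 11 of 16 cases, with none higher and a median of -2.05, and for the keratins and Epcam the LSFF arrays were again the higher pair. Krt8 and Krt18, the keratins of simple epithelia, were at 1.65, 2.83, 4.21 and 4.03 and 4.39, 5.62, 7.13 and 7.12 in serum and at -1.38, -2.84, -4.19 and -2.28 and 1.91, 0.41, 0.29 and 1.29 in 2iSB LIF (log2 differences -5.85 and -5.09, adjusted p = 3.6e-05 and 2.3e-05). Krt19 went from 2.18, 3.69, 5.67 and 5.58 to -0.48, -1.4, -0.65 and -0.91 (log2 difference -5.14, SE 0.73, adjusted p = 0.00012). Esrp1, a splicing regulator of epithelia, fell by 4.58, Cldn6, a tight junction claudin, fell by 4.4, and Epcam, an adhesion molecule, went from 1.83, 2.83, 3.31 and 3.45 to 0.09, 0.12, 0.4 and -0.83 (log2 difference -2.91, SE 0.33, adjusted p = 2e-05). Cdh1, E-cadherin, was not called (log2 difference -0.52, adjusted p = 0.34). Cldn3 and Ocln were called, but lost the call without LIF serum array 3 or 4 and, for Cldn3, 2iSB array 2 or, for Ocln, 2iSB array 4. Cldn4 lost it without LIF serum array 3 or 4.

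**Figure D4:**
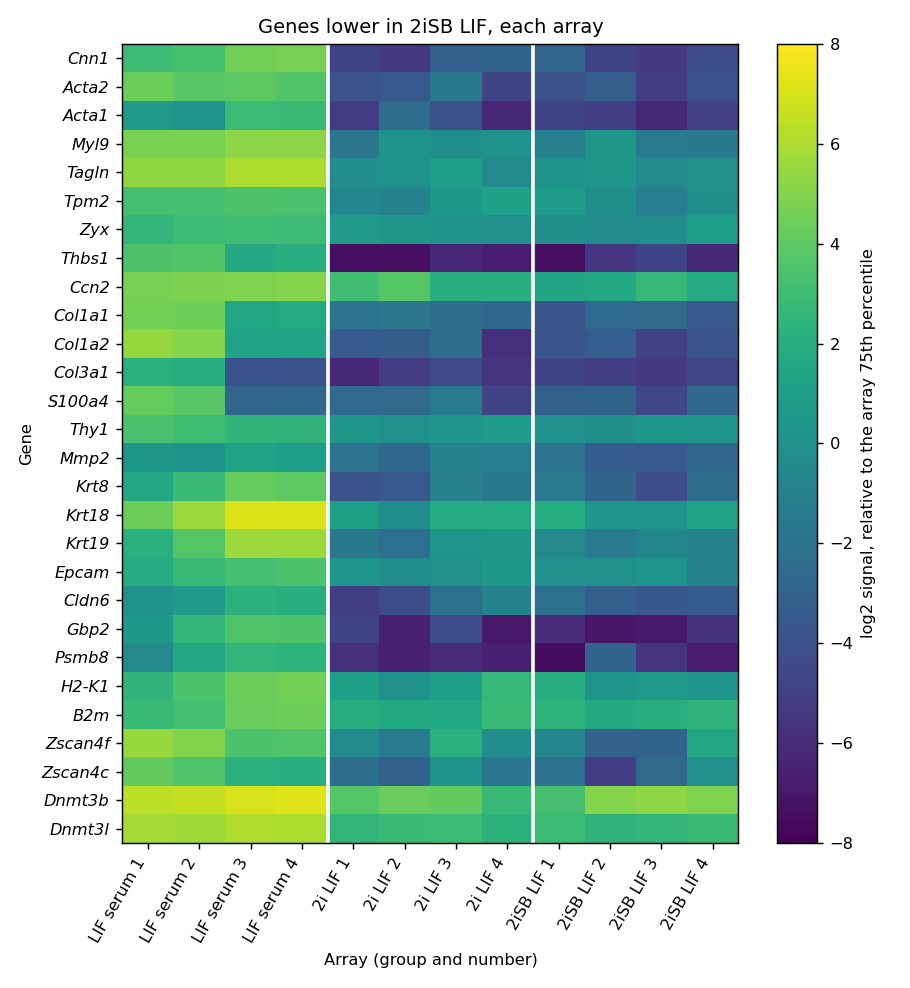
Log2 signal of 28 genes that were called lower in 2iSB LIF than in LIF serum, on each array of LIF serum, 2i LIF and 2iSB LIF (colour scale, relative to the array's 75th percentile). Collagen genes and S100a4 are bright on LIF serum arrays 1 and 2 and dimmer on 3 and 4, keratins and interferon genes show the reverse, and Myl9, Tagln and Dnmt3l are bright on all 4 serum arrays.

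Interferon-inducible and antigen presentation genes fell in 15 of 19 cases, with none higher and a median of -2.06. Gbp2, a guanylate-binding protein induced by interferon, was at 0.5, 2.57, 3.61 and 3.53 in serum and not well above background on any 2iSB array, at least 271-fold lower (adjusted p = 4.8e-07). Gbp2b and Gbp3 were at least 111-fold and 99.9-fold lower. For these 3 genes LIF serum array 1 was the lowest of its group. Psmb8, an immunoproteasome subunit, went from -0.48, 1.6, 2.55 and 2.36 to -7.49, -2.92, -5.55 and -6.69 (log2 difference -7.17, SE 0.8, adjusted p = 1.7e-05) and was well above background on 2iSB array 2 only. Isg15, a ubiquitin-like modifier, went from 0.21, 1.68, 0.47 and 0.52 to -1.68, -1.91, -2.72 and -2.13 (log2 difference -2.83, SE 0.31, adjusted p = 1.4e-05). The class I genes H2-K1 and B2m went from 2.45, 3.44, 4.41 and 4.58 to 2.05, 0.28, 0.64 and 0.27 and from 2.78, 3.21, 4.36 and 4.48 to 2.32, 1.73, 2.11 and 2.41 (log2 differences -2.91 and -1.57, adjusted p = 0.0012 and 0.0037). Ifit1 and Ifit3 were among the 15 but were not well above background on any of the 8 arrays, so no fold is given. Irf1 and Irf7, which drive these genes, were not called (log2 differences -0.9 and -0.66).

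The core of the interferon-stimulated response element, searched as GAAA, any 2 bases and GAAA again in either strand over the same 250 bases, was found in 7 of 13 called interferon genes with a promoter in the table (53.8%), in 384 of 12279 tested genes (3.13%) and in 74 of 1530 genes called lower (4.84%). The 7 include Ifit1 and Ifit3, which were not well above background on any of the 8 arrays. Sites may overlap. Among all tested members of the interferon list with a promoter, called or not, 8 of 17 held the element (47.1%). This motif was chosen after the values had been seen, for a list of interferon-inducible genes. A share above that of all genes therefore follows from the choice of list and motif. Of the 7 called genes with the element, Gbp2, Gbp3, Isg15, Bst2 and B2m had RNA well above background on all serum arrays. The promoters of Gbp2, Isg15 and B2m are shown as examples, with the element in capitals.
Gbp2, chr3:142620413-142620662, plus strand: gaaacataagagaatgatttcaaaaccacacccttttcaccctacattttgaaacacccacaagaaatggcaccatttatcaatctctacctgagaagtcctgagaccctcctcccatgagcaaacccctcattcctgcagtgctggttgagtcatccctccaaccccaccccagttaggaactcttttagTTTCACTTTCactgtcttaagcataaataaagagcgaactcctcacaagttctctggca
Isg15, chr4:156200819-156201068, minus strand: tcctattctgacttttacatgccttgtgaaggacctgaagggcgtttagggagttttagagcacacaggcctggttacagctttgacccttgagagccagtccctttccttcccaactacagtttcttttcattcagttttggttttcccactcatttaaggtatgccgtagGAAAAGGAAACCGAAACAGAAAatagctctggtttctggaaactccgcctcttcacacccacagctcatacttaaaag
B2m, chr2:122147437-122147686, plus strand: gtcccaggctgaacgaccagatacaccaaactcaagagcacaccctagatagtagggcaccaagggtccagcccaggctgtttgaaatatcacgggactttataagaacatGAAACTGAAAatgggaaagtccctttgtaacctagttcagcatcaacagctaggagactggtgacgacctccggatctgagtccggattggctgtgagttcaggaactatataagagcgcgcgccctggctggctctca

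Genes of the rare 2-cell-like state fell, 5 of 8, with none higher. Zscan4 genes mark this state, and their near-identical copies may share probes. Zscan4f was at 5.54, 4.99, 3.49 and 3.6 in serum and -0.72, -3, -2.89 and 1.6 in 2iSB LIF (log2 difference -5.66, SE 0.92, adjusted p = 0.00035), and Zscan4c at 4.17, 3.58, 2.18 and 2.1 and -2.14, -5.08, -2.44 and 0.12 (log2 difference -5.39, SE 0.89, adjusted p = 0.00041). The LS arrays were the higher serum pair, and array 4 of 2iSB LIF was the highest of its group. Zscan4a fell by 5.48, Tcstv1, well above background on 1 of 4 2iSB arrays, fell by 4.36 and Tcstv3 fell by 2.72. Sp110, Usp17la and Zfp352 were not called.

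Germline genes moved both ways, 5 of 19 up and 3 down, with a median of 0.17. The count that rose was 2 without 2iSB array 3, and with the filter on all 16 arrays none of 7 rose and the median was -0.13. Dazl, an RNA-binding protein of germ cells, rose from -1.36, -1.12, -0.18 and 0.09 to 1.97, 2.31, 2.89 and 0.8 (log2 difference 2.64, SE 0.48, adjusted p = 0.00088). Asz1, a piRNA pathway gene, rose from -7, -5.39, -3.31 and -3.37 to -2.06, -0.11, 0.97 and -1.16 (log2 difference 4.18, SE 0.95, adjusted p = 0.0039). Sycp3, of the synaptonemal complex, fell from 3.53, 3.64, 3.98 and 4.04 to 2.35, 1.83, 1.55 and 1.5 (log2 difference -1.99, SE 0.31, adjusted p = 0.00026), and Ddx4 (Vasa) fell by 1.29. Multicopy X-linked germline genes were among the largest rises, though the arrays of 2iSB LIF scattered. Of 13 tested, 8 rose and none fell, with a median of 2.00. The count that rose was 1 without 2iSB array 2, 1 without 2iSB array 3 and 1 with passage as a covariate. Rhox3h, a homeobox gene, was at -4.17, -4.43, -3.91 and -4.3 in serum and -2.96, 1.4, 1.86 and -1.44 in 2iSB LIF (log2 difference 3.92, SE 1.15, adjusted p = 0.017), and Rhox3f and Rhox3a, whose probes may measure the same copies, had differences of 3.86 and 3.44. Slx, an X-linked spermatid gene, was at -3.47, -2.74, -2.56 and -2.08 and -1.66, 1.86, 2.98 and 0.79 (log2 difference 3.7, SE 1.17, adjusted p = 0.025). Magea6 and Dcaf8l, not well above background on any serum array, were at least 8.27-fold and 18-fold higher. For these genes 2iSB arrays 2 and 3 were the highest and array 1 the lowest of its group, and on 2i arrays 1 and 2 were high and 3 and 4 low, as for Rhox3h at 1.78, 1.28, -3.06 and -3.15. The calls of Rhox3h, Rhox3f, Rhox3a, Slx and Magea6 were lost without 2iSB array 2 and again without array 3, and those of Rhox3a, Slx and Magea6 without 1 or more of the serum arrays. Against the LS or the LSFF arrays alone 3 and 2 of the 13 were called.

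X-linked genes as a whole were also lowest on 2iSB array 1 and highest on array 3. Relative to the autosomal median of the array, the median of 620 X-linked genes was -0.48 on 2iSB array 1 and 0.36, 0.64 and 0.41 on arrays 2, 3 and 4. It was -0.39, -0.33, -0.22 and -0.22 on LIF serum arrays and 0.66, 0.38, -0.51 and -0.42 on 2i arrays. Array 1 of 2iSB LIF thus lay with serum. The median difference of X-linked genes between 2iSB LIF and serum was 0.48, and 21.3% of them were called higher, against 6.2% of 14892 autosomal genes. Without 2iSB array 1 the median was 0.72. The tested genes of the Y chromosome were well above background on LIF serum arrays only. Eif2s3y, a translation factor subunit, was at 3.61, -4.26, 3.91 and 4.12 in serum and Ddx3y, an RNA helicase, at 1.23, -4.33, 1.7 and 1.59, and neither was well above background on any 2iSB or 2i array. LIF serum array 2 had low values of both, and it was the 1 array of the 8 on which Xist, the RNA that silences an X chromosome, was well above background, at -1.89. Sex chromosome content of the lines and the medium cannot be told apart. Restricted to autosomal genes, 2930 of 14892 were called, 924 higher and 2006 lower.

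Single autosomes also shifted on single arrays. Relative to all autosomal genes, chromosome 8 was at 0.31 on 2iSB array 1 and between -0.13 and -0.07 on the others of its group. On 2iSB array 4, chromosome 2 was at 0.37 and chromosome 16 at 0.31. Chromosome 11 was at 0.28 on LIF serum arrays 3 and 4, -0.02 and 0.09 on arrays 1 and 2, and between -0.11 and -0.06 on 2iSB arrays, and its median difference between the groups was -0.24. Genes on this chromosome include Col1a1 and Krt19. Copy number was not measured, and its part in these shifts was not tested.

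**Figure D5:**
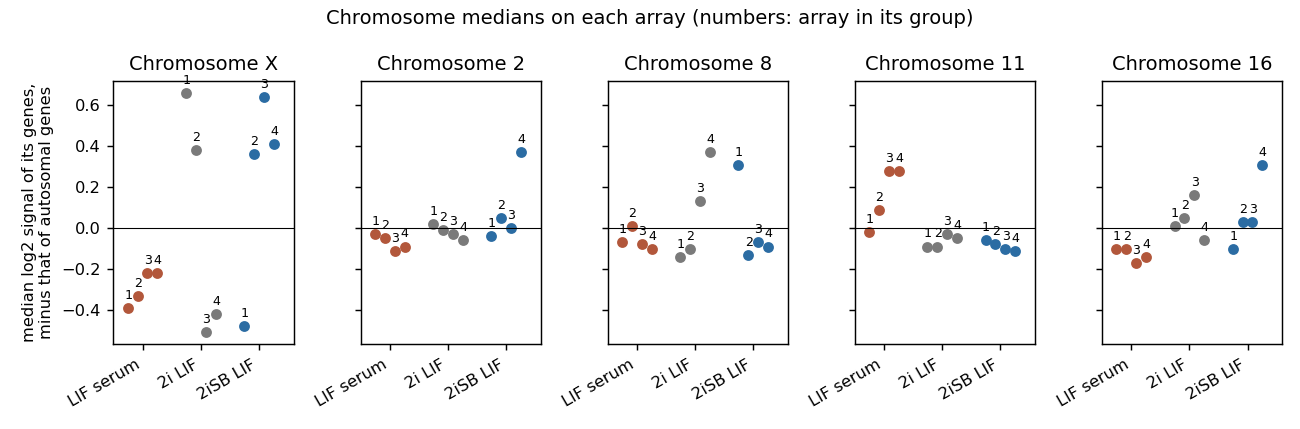
Median log2 signal of the genes of chromosomes X, 2, 8, 11 and 16 on each array of LIF serum, 2i LIF and 2iSB LIF, minus the median of autosomal genes, with the array's number beside its point. X is at -0.48 on 2iSB array 1 and between 0.36 and 0.64 on the others of that group, and single arrays stand apart for chromosomes 2, 8 and 16.

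Imprinted genes fell in 10 of 18 cases and 1 rose, with a median of -1.40. Nnat, neuronatin, expressed from the paternal copy, went from -0.12, 1.55, 1.64 and 1.44 to -3.65, -4.05, -3.77 and -4.01 (log2 difference -4.99, SE 0.39, adjusted p = 7.1e-07). Dlk1, a paternally expressed Notch-like ligand, went from 0.51, 1.5, 1.78 and 1.63 to -1.3, -2.41, -2.87 and -2.03 (log2 difference -3.51, SE 0.3, adjusted p = 1.8e-06), and Peg10, a retroelement-derived placental gene, fell by 3.95. Phlda2, expressed from the maternal copy, overlapped on 1 2iSB array and fell from 2.12, 1.71, 1.68 and 2.25 to -1.56, -0.69, -0.59 and 1.75 (log2 difference -2.21, SE 0.52, adjusted p = 0.005). Cdkn1c, a maternally expressed cell cycle inhibitor, was at 3.24, 2.44, 3.4 and 3.32 and scattered over -1.12, 0.32, 1.34 and 2.43, and its call was lost without LIF serum array 3 or 2iSB array 1 or 2. Ndn, of the MAGE family, rose by 1.68. Falls thus included genes of either parental copy.

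Among regulators of chromatin and the cell cycle, few genes moved. Of 16 Polycomb genes 2 rose, Bmi1, a subunit of PRC1, from -1.36, -1.54, -0.7 and -0.45 to 1.34, 1.78, 2.27 and 2.15 (log2 difference 2.9, SE 0.27, adjusted p = 3.1e-06), and Phf19, whose call was lost without LIF serum array 2 or 4 or 2iSB array 2 or 4. Ezh2, Eed and Suz12, the PRC2 core, were not called (0.14, 0.18 and 0.18). Cdkn2a, the locus of p16 and p19Arf that Bmi1 is known to repress, rose as well, from 1.69, 1.71, 1.34 and 1.49 to 3.96, 3.85, 3.92 and 3.76 (log2 difference 2.31, SE 0.23, adjusted p = 6.7e-06). Ccnd2, cyclin D2, fell from 2.04, 1.69, 0.97 and 0.86 to -5.84, -3.78, -4.85 and -2.37 and was well above background on 2 of 4 2iSB arrays (log2 difference -5.6, SE 0.71, adjusted p = 5e-05). Ccnd1 was not called (0.51). Myc was the 1 fall and Pes1, of ribosome assembly, the 1 rise among 18 Myc and ribosome biogenesis genes.

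Few genes of oxidative phosphorylation and glycolysis were called. None of 26 oxidative phosphorylation genes was called by limma, and the median was 0.03. Of these 26, 5 had an unadjusted limma p under 0.05 and 5 did not overlap between the groups. Both are smaller shares than over all 15517 genes, where the counts were 6783 and 4570. Of 21 glycolysis genes 2 fell, Eno3, the muscle enolase (-2.46), and Pfkl, whose call was lost without LIF serum array 3 or 4 or 2iSB array 2 or 3. Cholesterol synthesis genes leaned upward, with 5 of 22 called higher, none lower and a median of 0.64. The 22 differences were all above 0, and 9 genes did not overlap between the groups, as did 29.5% of all genes tested. Cyp51, lanosterol demethylase, went from -0.06, -0.22, -0.37 and -0.29 to 1.69, 1.06, 1.61 and 1.21 (log2 difference 1.63, SE 0.16, adjusted p = 4.2e-06). Sqle and Hsd17b7 were called at the edge of the 2-fold rule. Hsd17b7 lost its call without 2iSB array 1, and Sqle without LIF serum array 2 or 3 or 2iSB array 1 or 3. Of 8 genes of the aryl hydrocarbon receptor, 2 rose. Cyp1a1, the detoxifying oxidase that is its classic target, was not well above background in serum and at -1.8, 1.23, -1.83 and -0.22 in 2iSB LIF, at least 18.6-fold higher (adjusted p = 0.00039). Nqo1, a quinone reductase, went from -0.34, 0.12, -0.32 and -0.19 to 2.57, 2.71, 3.28 and 2.78 (log2 difference 3.02, SE 0.2, adjusted p = 1.8e-07). On 2i arrays Cyp1a1 was at -1.13, 1.41, -1.03 and -3.78 and Nqo1 at 2.4, 2.58, 2.23 and 2.62.

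Of 12 neural genes 3 rose, Sox21 (above), Pax6, from -2.76, -2.7, -4.59 and -4.6 to -1.7, -1.22, -0.89 and -0.12 (log2 difference 2.68, SE 0.53, adjusted p = 0.0015), and Hesx1, an anterior homeobox factor, from -2.14, -2.35, 0.48 and 0.74 to 1.95, 2.36, 2.67 and 1.85 (log2 difference 3.02, SE 0.71, adjusted p = 0.0046), while Sox1 was not called. Of 15 primitive streak and mesendoderm genes 6 fell, among them T, Mesp1, Mesp2 and Tbx6, and 3 rose, Gsc, Eomes and Evx1. Gsc thus moved against most of its list. Evx1 was well above background on 3 of 4 2iSB arrays, and its call was lost without any of 6 arrays (LIF serum 1, 3 and 4 and 2iSB 2, 3 and 4). Of 13 trophectoderm genes 5 rose, Tfap2c by 1.7, Tead4 by 1.36, Tfap2a, Elf5 and Eomes, and 4 fell, including Plac8, from 3.57, 3.62, 3.8 and 4.18 to -2.67, -3.59, -4.97 and -4.35 (log2 difference -7.69, SE 0.38, adjusted p = 1.3e-08), and Hand1. Of 12 primitive endoderm genes 3 fell, of which Dab2, an endocytic adaptor, was at least 8.86-fold lower, while the calls of Cubn and Pdgfra were lost without LIF serum array 3 or 4 or 2iSB array 1 or 4. Gata4 and Gata6 were not called (-1.52 and -0.46). Of 12 retinoic acid genes 2 fell, Cyp26b1, which degrades retinoic acid, from -0.22, -0.77, -2.29 and -2.55 to -4.08, -3.78, -4.56 and -3.72 (log2 difference -2.58, SE 0.45, adjusted p = 0.00061), and Dhrs3 (-2.22). Of 16 Hox genes 2 rose and 3 fell. Hoxb9 was the larger rise, from -2.42, -2.96, -3.41 and -3.42 to -1.46, -0.46, -0.09 and -1.31 (log2 difference 2.22, SE 0.47, adjusted p = 0.0024), and Hoxc6, well above background on 1 of 4 2iSB arrays, the largest fall (-3.11). Of 12 serine, glycine and threonine genes 1 rose, Amt, and its call was lost without LIF serum array 2 or 2iSB array 3. For comparison with these small counts, 6.81% of all genes tested were called higher and 13.3% lower.

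Beyond these lists, the largest rises of genes measured on all 8 arrays included genes with the array pattern of the X-linked family. Akr1c13, an aldo-keto reductase on chromosome 13, was at -3.2, -2.36, -2.71 and -2.59 in serum and -1.38, 1.23, 2.07 and 1.35 in 2iSB LIF (log2 difference 3.53, SE 0.73, adjusted p = 0.002). Nlrp4c, an oocyte gene on chromosome 7, was at -1.39, 0.1, 0.56 and 0.6 and 2.15, 3.93, 4.8 and 3.01 (log2 difference 3.5, SE 0.8, adjusted p = 0.0039), and Iqca on chromosome 1 at -3.63, -2.46, -1.6 and -1.47 and 0.01, 1.81, 2.55 and 0.25 (log2 difference 3.44, SE 0.68, adjusted p = 0.0015). On each of these autosomal genes 2iSB array 3 was the highest and array 1 the lowest of its group. On 2i arrays Akr1c13 was at 1.44, 1.63, -1.7 and -0.6, Nlrp4c at 4.23, 4, 0.56 and 1.36 and Iqca at 2.73, 1.92, -0.18 and 0.2, with arrays 1 and 2 above 3 and 4. Luzp4 on chromosome X rose by 3.4. Lrrc15, a leucine-rich repeat membrane protein, was at -0.84, -1.31, -2.06 and -2.18 and 1.22, 1.87, 2.04 and 2.75 (log2 difference 3.57, SE 0.4, adjusted p = 1.7e-05), Grin1, an NMDA receptor subunit, at -1.47, -2.77, -2.43 and -2.73 and 0.92, 0.31, 0.66 and 0.99 (log2 difference 3.07, SE 0.34, adjusted p = 1.5e-05), and Slit2, an axon guidance ligand, at -1.89, -2.41, -3.98 and -3.36 and -0.44, 0.82, 0.79 and -0.27 (log2 difference 3.13, SE 0.51, adjusted p = 0.00036). Mal, a raft protein, rose by 3.31 and Dido1, a chromatin protein, by 3.36. Ffar2, a fatty acid receptor, and Sash3, an adaptor of lymphocytes, were not well above background in serum and were at least 8.97-fold and 8.05-fold higher.

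The largest falls outside the lists came from several classes of genes. Spink1, a trypsin inhibitor, was at 3.4, 3.09, 2.1 and 2.32 in serum and -4.73, -2.89, -2.61 and -3.08 in 2iSB LIF (log2 difference -6.06, SE 0.62, adjusted p = 8.6e-06). Epha1, an ephrin receptor, was at 0.87, 1.72, 2.04 and 2.13 and -3.03, -2.99, -2.45 and -3.79 (log2 difference -4.75, SE 0.38, adjusted p = 9.4e-07). Kif1a, an axonal kinesin, fell by 5.23, and Stmn4, of the stathmin family, fell by 4.72, both with LIF serum array 1 the lowest of its group. Timp2, an inhibitor of matrix proteases, was at 4.35, 3.74, 2 and 2.03 and 0.43, -2.39, -3.1 and -1.61 (log2 difference -4.7, SE 0.72, adjusted p = 0.00023), with the LS pair higher. Enpp2 (autotaxin), which makes lysophosphatidic acid, was at 0.2, 1.08, 1.62 and 1.81 in serum and not well above background on any 2iSB array, at least 111-fold lower.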

How the data were processed

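RNA of 4 lines per group was isolated with RNeasy, labelled with Cy3 from 100 ng and hybridised to Agilent arrays, per the labels' protocols. The deposited files hold intensity values per spot, background-subtracted by Feature Extraction 10.7.1.1 (protocol GE1_105_Dec08), per the file headers. A deposited value table on the log2 scale served as an alternative, and the labels do not state its centring. Outlier spots were left out, spots of a probe averaged, and log2 of the processed signal was taken minus the array's 75th percentile. Probes were named through RefSeq accessions (27656 of 55681). A gene was represented by its brightest probe and tested if at least 1 of the 4 groups had this probe well above background on each of its arrays. limma 3.58.1 (R 4.3.3) was fitted on all 16 arrays with 4 group means (LIF serum, 2i LIF, 2iSB LIF and 4 arrays of primed mEpiSCs, grown with Activin A and bFGF), so a gene can be tested through the mEpiSC arrays alone, with Benjamini-Hochberg adjustment over 15517 genes, and was checked on simulated data. A fold given as "at least" compares the bright group's mean with the dim group's detection limit (the lowest signal well above background, or the probe's own if higher). The normexp alternative used median signals in place of mean signals, with an offset of 50.

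Members and gene lists were chosen with earlier results of these data known, so counts over a list are descriptions. Besides list members and the 4 markers, genes named are the 15 largest rises and falls among called genes that did not overlap and were well above background on all 8 arrays, the 5 largest bounds in each direction, and against 2i LIF the 10 largest and 2 bounds. Replicate numbers did not pair the arrays. Other scalings, filters, fits and left-out arrays are in the closing section. The number of arrays limits the precision. Some called genes are counted but not reported by name here.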

Additional observations from a re-analysis of the deposited data

Results flagged for a closer look

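In groups of 4 arrays, 1 array lay far from the other 3 in 14 of 378 gene and group combinations tested, where chance flags about 1 in 20. LIF serum array 2 was the lower for Eif2s3y (-4.26, the others 3.61 to 4.12), Ddx3y (-4.33, the others 1.23 to 1.70), Cdkn1c (2.44) and Igfbpl1 (-2.19), and the higher for Fgf5 (-0.26) and T (-0.54). LIF serum array 1 was the lower for Nnat (-0.12) and Dusp4 (0.83). It was the higher for Ffar2 (-5.57) and Sash3 (-5.75), both not well above background in serum. In 2iSB LIF, array 2 was higher for Ankrd1 (-3.79, the others -7.60 to -7.00), array 1 was lower for Smad7 (0.45) and Irgm1 (-6.87) and array 4 was higher for Spry1 (0.59). The median of chromosome 8 stood apart on 2iSB array 1 (0.31).

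Responses against the shared serum group differed between 2iSB LIF and 2i LIF, by the direct test of 2iSB minus 2i with limma, for Lefty1 (-8.88), Lefty2 (-6.13), Irgm1 (-3.56), Duxbl1 (-2.69), Duxbl2 (-2.60), Steap2 (-2.38), Fhod3 (-2.25), Igfbpl1 (-2.16), Arnt2 (-1.64), Cotl1 (1.19) and Gsn (1.81). The values of Duxbl1 and Arnt2 are fitted differences against arrays that were not well above background, and Lefty1 was well above background on 1 of 4 2iSB arrays and Irgm1 on 3. The part of line-to-line differences was not tested.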

How the results depend on the processing

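The count of 3115 called genes was between 2172 and 3182 under normexp, median, quantile, deposited-value, unfiltered, 2-group-filter, mean-of-probes, 8-array and slide-block alternatives. It was 1827 with the filter on all 16 arrays (1084 lower), 1761 within slide 1 (562 higher, 1199 lower), 4969 within slide 2 (2223 higher) and 1902 with passage as a covariate (620 higher, 1282 lower). The share called higher was 33.9% and was 44.7% within slide 2. Restricted to autosomal genes, an alternative chosen after seeing the data, the count was 2930. Leaving out single arrays gave 2676 to 3424, with 834 to 1245 higher and 1777 to 2179 lower. Replicate numbers did not pair the arrays (correlations of -0.02, 0.25, 0.13 and -0.14), and with the replicate number as a block 2432 genes were called, and 1 between 2iSB and 2i LIF. That count of 13 was 3 on 8 arrays and 11 to 27 without single arrays. The median of chromosome 16 was 0.18, and 0.08 under normexp. Medians changed sign or reached 0 for, among others, the Wnt list (0.06 with the 16-array filter and 0 within slide 1), Polycomb (-0.02 within slide 1), primitive streak and mesendoderm (0.27 with the 16-array filter, which drops genes dim on any array), trophectoderm (-0.4, and 0.65 within slide 1), Hox (0.07, and -0.67 against the LS arrays) and other lists with medians near 0. Spry4 reversed to 1.75 within slide 2 and 2.00 against the LSFF arrays. The other causes were not tested.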

Other observations

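Eif2s3x, the X-linked partner of Eif2s3y, was at 3.43, 2.81, 3.93 and 4.11 in LIF serum and 1.4, 2.24, 2.92 and 2 in 2iSB LIF (log2 difference -1.43, SE 0.39, adjusted p = 0.011 by limma), lower in 2iSB LIF although the median X-linked gene was higher. Its arrays overlapped between the groups.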
